A study of Mus musculus with 6 samples.

Results

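The 9 genes described here belong to the interferon response and to the sensing of foreign nucleic acid: Ifih1, Ddx58, Ifi204, Irf7, Stat2, Bst2, Irgm1, Ifi35 and Ifit2. They were taken as a list of symbols, each matched through the RefSeq identifier of its probe, and all 9 were found among the 561 genes of the table. RNA of splenocytes, the cells isolated from the spleen, was counted in female mice of the NZB/WF1 cross, which are prone to lupus. All mice received an implant at 6 to 7 weeks of age and were killed after 9 weeks with it. The implant held 17-beta estradiol (E2) in the first group and 17alpha-ethinyl estradiol (EE) in the second, and was empty in the placebo group, with 2 samples in each group. Samples are named by the numbers in their labels: E2 replicates 1 and 2, EE replicates 11 and 14, and placebo replicates 22 and 26. The assay was an nCounter panel of immunology genes, which counts single RNA molecules through probes with colour barcodes, with no sequencing step. Implant doses, and whether each sample came from its own mouse, do not appear in these sources. The p-values therefore reflect the spread between samples only, which may be technical.

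Cells recognise viral RNA in the cytoplasm with the helicases RIG-I, encoded by Ddx58, and MDA5, encoded by Ifih1, which signal to switch on type I interferon. Interferon then binds its receptor and activates a transcription complex that contains STAT2 and IRF9, which drives a large set of interferon-stimulated genes. Among these genes are the sensors themselves and IRF7, a factor that amplifies the production of interferon. In lupus this pathway is often active, and plasmacytoid dendritic cells, B cells and macrophages are among the spleen cells that express its genes.

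Shown first is the DNA around the start sites of 4 members, with the letters of the element through which interferon-stimulated genes are known to answer type I interferon. The promoter windows are those of RefSeq on GRCm38.p6, each 300 bases from 250 before to 50 after the start of the gene, and 8 of the 9 members were found in that table. They were searched for the core of the interferon-stimulated response element, spelled GAAANNGAAA, and its reverse complement, TTTCNNTTTC. A match was found for 5 of the 8 members, namely Ifih1, Ddx58, Stat2, Bst2 and Irgm1. Of all 27025 genes in that table, 3.99% had a match, and 3.44% of all 32851 windows held it. Bst2 and Irgm1 each held a pair of matches that overlap by the letters GAAA, and the share of all windows with such a pair was not counted. The windows of those genes and of both RNA sensors are printed 5′ to 3′ in lower case, with the matches in capitals.
Bst2, chr8:71537423-71537722, minus strand: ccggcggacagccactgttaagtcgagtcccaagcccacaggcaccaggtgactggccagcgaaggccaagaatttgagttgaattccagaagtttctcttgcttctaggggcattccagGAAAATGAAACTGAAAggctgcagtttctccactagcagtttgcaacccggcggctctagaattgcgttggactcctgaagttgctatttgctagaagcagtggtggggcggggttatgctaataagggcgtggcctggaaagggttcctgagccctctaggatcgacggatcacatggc
Irgm1, chr11:48871371-48871670, minus strand: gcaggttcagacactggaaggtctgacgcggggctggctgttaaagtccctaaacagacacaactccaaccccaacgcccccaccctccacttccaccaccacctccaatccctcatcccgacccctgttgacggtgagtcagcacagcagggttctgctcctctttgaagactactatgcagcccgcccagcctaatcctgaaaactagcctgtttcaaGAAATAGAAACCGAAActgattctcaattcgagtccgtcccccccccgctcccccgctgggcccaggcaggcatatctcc
Ddx58, chr4:40239776-40240075, minus strand: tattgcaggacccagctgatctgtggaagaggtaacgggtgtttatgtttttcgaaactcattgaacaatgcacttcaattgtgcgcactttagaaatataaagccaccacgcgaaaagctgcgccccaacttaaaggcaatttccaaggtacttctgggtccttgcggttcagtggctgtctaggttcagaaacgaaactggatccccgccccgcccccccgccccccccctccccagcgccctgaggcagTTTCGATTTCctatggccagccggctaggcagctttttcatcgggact
Ifih1, chr2:62646206-62646505, minus strand: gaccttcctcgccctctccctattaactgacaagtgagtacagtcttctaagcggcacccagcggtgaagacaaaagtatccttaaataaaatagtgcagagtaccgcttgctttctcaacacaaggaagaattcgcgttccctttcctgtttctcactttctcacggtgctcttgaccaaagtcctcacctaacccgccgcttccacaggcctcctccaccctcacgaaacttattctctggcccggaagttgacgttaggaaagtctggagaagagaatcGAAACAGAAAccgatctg
The first match begins at base 121 of the Bst2 window and at base 221 of the Irgm1 window, both before the start of the gene, while those of Ddx58 and Ifih1 begin at bases 253 and 283, after it. The Stat2 window (chr10:128270248-128270547, plus strand) held TTTCAGTTTC from base 29. The core of the gamma-activated site, TTCNNNGAA, which reads the same on either strand, was present in windows of Bst2, Ifi35 and Ifit2. It was present for 9.55% of all genes and in 8.3% of all windows. In Bst2 it begins at base 115, and its last letters overlap the first response element match. A match is a description of these letters and no evidence of binding.

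The genes of a sample summed to between 646299 and 863942 counts, lowest in the EE samples. The background level, 2 SD above the mean of 8 negative-control probes, lay between 10.1 and 13.7 counts, and each of the 9 genes was above 90 counts in every sample. The 12 named reference genes had a geometric mean of between 1117 and 1185 per sample, so the values may have been scaled on them before deposit. Fold changes below are relative to these genes unless stated otherwise. The level mean does not show that each reference gene was stable. By the edgeR test used below, 2 of the 12 were higher and 4 lower under E2 against placebo on this scale. Under EE, 3 were higher and 3 lower. On this scale the whole panel was lower under estrogen: the median log2 fold change of the 457 genes tested was -0.62 for E2 and -0.75 for EE against placebo. With trimmed-mean (TMM) scaling, which sets the bulk of the panel to no change, log2 fold changes lay 0.63 and 0.75 higher, so directions against placebo depend on the scale and are given on both. Of the 12 reference genes, 11 were higher under E2 and 10 under EE with TMM scaling, and 0 were lower. Sums of marker gene counts moved with the groups. On the reference gene scale, 8 erythroid, megakaryocyte and platelet markers summed to 2609 to 3297 in placebo, 15854 to 16010 in E2 and 20148 to 20952 in EE. For 12 NK and cytotoxic cell markers the sums were 4435 to 4808, 1276 to 1826 and 1322 to 1523. With TMM scaling all 8 of the former were higher under each estrogen. Of the latter, 9 were lower and 1 higher under E2, and 8 were lower under EE. On the reference gene scale the sum of 10 neutrophil markers was 11279 to 15785 in placebo, 184529 to 208468 in E2 and 82675 to 94695 in EE. The sum of 18 T cell markers went from 33499 to 39676 in placebo to 13764 to 16796 in E2 and 11173 to 12694 in EE, and that of 14 B cell markers from 157280 to 180061 to 83945 to 97941 and 83794 to 85226. With TMM scaling 9 of the neutrophil markers were still higher under E2 and 8 under EE, and 16 and 18 of the T cell markers were lower. Of the B cell markers, all 14 were lower under each estrogen on the reference scale, and with TMM scaling 6 were lower under each and 1 was higher under EE. No defining marker was at 0 in any group, but the negative controls also gave counts, so this does not show that a cell type was present. Fewer cells of a type and less RNA per cell cannot be told apart in such bulk samples, and the part of these shifts in the results below was not tested.

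Against placebo, 6 of the 9 genes were lower under E2 and 7 under EE, and 0 were higher in either comparison, in edgeR's quasi-likelihood test at an adjusted p of 0.05. At an unadjusted p under 0.05, and by DESeq2, the number higher was also 0. By limma 1 was higher under EE, Ifih1, but that fit used the deposited values without reference scaling. Without EE replicate 11, 4 members were lower under EE. Over all genes tested, 62.6% were lower and 11.8% higher under E2, and 65.9% were lower and 14.4% higher under EE, so the share of members that were lower is near that of the panel. The members' median log2 fold change was -0.70 for E2 and -0.61 for EE, and for EE it was -0.40 without placebo replicate 22. With TMM scaling 2 members were higher and 0 lower under E2, where 29.3% and 22.8% of all genes were, and 3 were higher and 1 lower under EE, where 29.8% and 26.9% were. The members thus did not move as a block on either scale: their log2 fold changes spread from -0.98 to 0.16 under E2 and from -1.03 to 0.33 under EE. On the reference scale both samples of E2 lay below both placebo samples for 6 members and above them for 1 (70.7% and 15.8% of all genes), and those of EE lay below for 7 and above for 2 (71.6% and 17.9%). Both comparisons share the placebo samples.

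**Figure D1:**
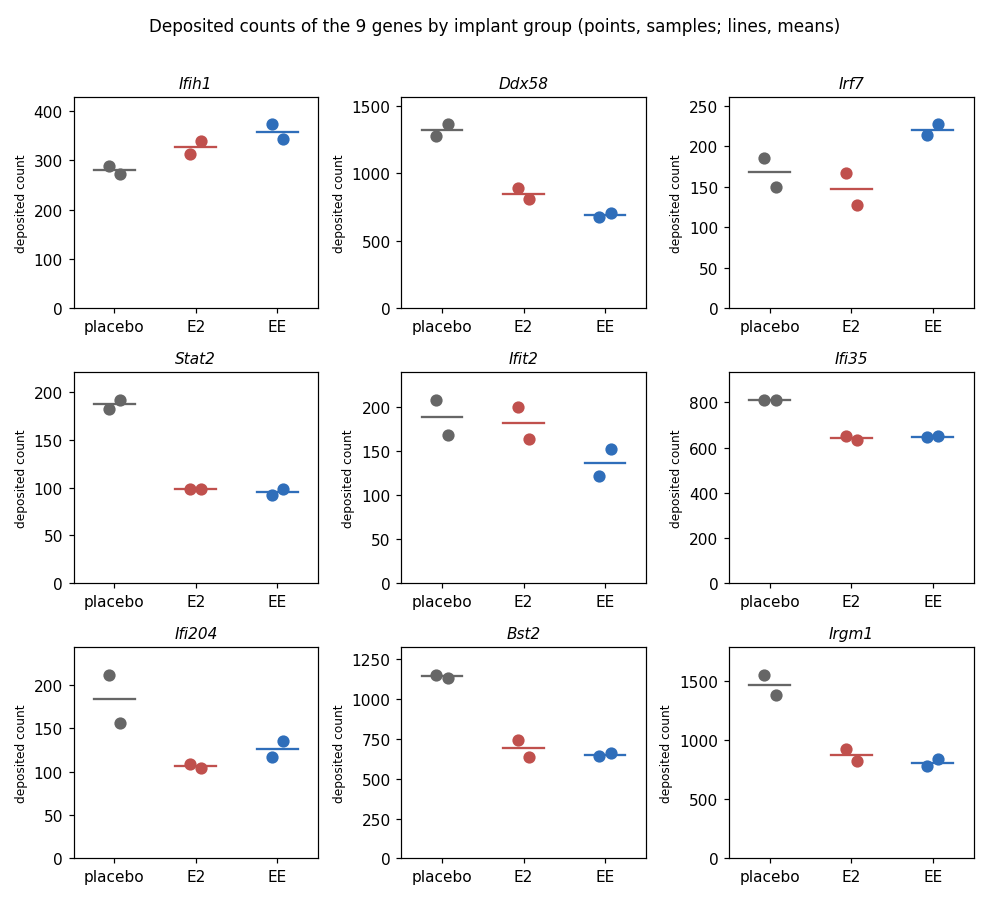
Deposited counts of the 9 genes on linear axes that start at 0, with a point for each sample and a line for the mean of each group of 2. Ddx58, Stat2, Bst2, Irgm1, Ifi35 and Ifi204 were lower in all 4 estrogen samples than in both placebo samples, Ifih1 was higher in all 4, and Irf7 was highest in the EE samples.

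The RNA sensors moved apart. Ifih1, whose product MDA5 binds long double-stranded RNA, counted 288 and 272 in the placebo samples, 313 and 340 in the E2 samples and 373 and 343 in the EE samples. Every estrogen sample lay above both placebo samples. The log2 fold change of Ifih1 was 0.16 ± 0.18 (SE) for E2 (adjusted p = 0.412, edgeR) and 0.29 ± 0.18 for EE (adjusted p = 0.119), neither past the threshold. With TMM scaling it was 0.79 ± 0.14 (adjusted p = 0.00142) and 1.04 ± 0.14 (adjusted p = 2.42e-04). The adjusted p for EE went from 1.26e-04 to 0.896 over 21 alternatives, of which 8 called it higher and 0 lower.

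Ddx58, whose product RIG-I binds short RNA with a 5′ triphosphate, counted 1277 and 1363 in placebo, 891 and 806 in E2 and 674 and 705 in EE. The groups did not overlap, with placebo highest and EE lowest. Ddx58 fell by 0.70 ± 0.14 on the log2 scale with E2 (adjusted p = 3.87e-06) and fell by 1.003 ± 0.15 with EE (adjusted p = 3.77e-11). With TMM scaling the log2 fold change was -0.07 for E2 (adjusted p = 0.501) and -0.25 for EE (adjusted p = 0.0297). The decrease with EE passed the threshold in all 21 alternatives.

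A ratio of counts within a sample is free of any scaling of that sample. The ratio of Ifih1 to Ddx58 was 0.226 and 0.200 in the placebo samples, 0.351 and 0.422 in the E2 samples and 0.553 and 0.487 in the EE samples. The 3 groups did not overlap, and the order ran from placebo through E2 to EE. The pairs of genes were picked by hand. The share of all gene pairs whose ratios separate the groups in this way was not counted. The ratio shows that the sensors changed unequally, and not which of them changed.

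**Figure D2:**
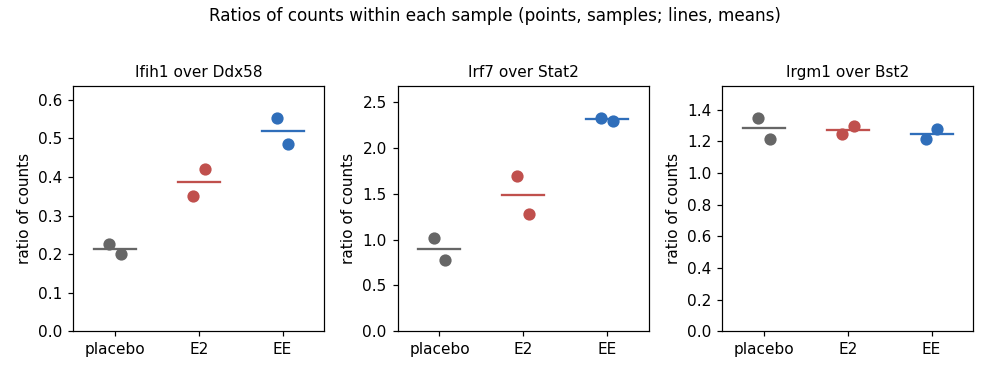
Ratios of deposited counts within each sample for 3 pairs of genes, on linear axes that start at 0, with a point for each sample and a line for the mean of each group of 2. The ratios of Ifih1 to Ddx58 and of Irf7 to Stat2 rise from placebo through E2 to EE with no overlap, while that of Irgm1 to Bst2 stays between 1.21 and 1.35 in all samples. The pairs were picked by hand, and the share of all gene pairs with such ratios was not counted.

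Ifi204 encodes p204, a sensor of DNA and regulator of transcription from a cluster of closely related genes on chromosome 1, so its probe could count transcripts of its relatives and its value is uncertain. It counted 212 and 156 in placebo, 109 and 104 in E2 and 117 and 135 in EE. Both estrogen groups lay below placebo, whose own samples were far apart. Ifi204 fell by 0.85 ± 0.21 on the log2 scale with E2 (adjusted p = 1.09e-04) and by 0.61 ± 0.21 with EE (adjusted p = 0.00451). With TMM scaling the log2 fold change was -0.22 for E2 (adjusted p = 0.352) and 0.14 for EE (adjusted p = 0.551). The call for EE was also lost without EE replicate 11 (adjusted p = 0.104) and without placebo replicate 22 (adjusted p = 0.115).

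The factors that carry the signal to the nucleus moved apart as well. Stat2, the subunit through which type I interferon assembles its transcription complex, counted 182 and 192 in placebo, 99 and 99 in E2 and 92 and 99 in EE. All 4 estrogen samples lay far below placebo and next to each other. Stat2 fell by 0.98 ± 0.21 on the log2 scale with E2 (adjusted p = 1.00e-05) and fell by 1.03 ± 0.21 with EE (adjusted p = 2.57e-06). The TMM-scaled values were -0.35 (adjusted p = 0.0747) and -0.28 (adjusted p = 0.134).

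Irf7, the factor that amplifies interferon production, counted 186 and 150 in placebo, 167 and 127 in E2 and 214 and 227 in EE. The E2 and placebo samples overlapped, and both EE samples lay above all other samples. Its log2 fold change against placebo was -0.25 ± 0.20 for E2 (adjusted p = 0.248) and 0.33 ± 0.19 for EE (adjusted p = 0.108). With TMM scaling the value for EE was 1.08 ± 0.16 (adjusted p = 4.04e-04), and that for E2 was 0.37 ± 0.17 (adjusted p = 0.0900). Within a sample the ratio of Irf7 to Stat2 was 1.02 and 0.781 in placebo, 1.69 and 1.28 in E2 and 2.33 and 2.29 in EE. The 3 groups again did not overlap, and the share of all gene pairs that do the same was not counted.

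Among the effectors, Bst2 and Irgm1 fell together. Bst2 encodes tetherin, which holds budding virus at the cell surface and marks plasmacytoid dendritic cells in mice. It counted 1152 and 1134 in placebo, 744 and 638 in E2 and 642 and 661 in EE. Bst2 fell by 0.79 ± 0.15 on the log2 scale with E2 (adjusted p = 3.83e-07) and by 0.88 ± 0.15 with EE (adjusted p = 1.28e-08). Irgm1, an interferon-induced GTPase that acts on autophagy and on vacuoles holding microbes, counted 1553 and 1378 in placebo, 928 and 827 in E2 and 778 and 843 in EE. Irgm1 fell by 0.80 ± 0.14 with E2 (adjusted p = 9.05e-08) and by 0.92 ± 0.14 with EE (adjusted p = 6.86e-10). Placebo lay above all 4 estrogen samples for both genes. With TMM scaling neither decrease passed the threshold, with log2 values of -0.16 and -0.12 for Bst2 (adjusted p = 0.147 and 0.257) and -0.18 and -0.17 for Irgm1 (adjusted p = 0.158 and 0.168). The ratio of Irgm1 to Bst2 lay between 1.21 and 1.35 in all 6 samples, with the groups overlapping.

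Siglech, Clec4c, Spib, Runx2, Il3ra and Tlr7, listed as markers of plasmacytoid dendritic cells, were not found in the table. The 5 such markers that were found include Bst2 and Irf7, so their sum is not independent of these genes. Scaled on reference genes, the sum was 4235 to 4732 in placebo, 2332 to 2753 in E2 and 2150 to 2202 in EE. On the reference scale 4 of the 5 were lower and 0 higher under each estrogen, whereas with TMM scaling 2 were lower and 0 higher under E2, and 1 was lower and 1 higher under EE. The part of these cells in the levels of Bst2 was not tested.

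Ifi35, an interferon-induced protein with a leucine zipper, counted 813 and 811 in placebo, 653 and 636 in E2 and 646 and 652 in EE. The samples of each group lay close together and placebo was highest. Ifi35 fell by 0.39 ± 0.15 on the log2 scale with both E2 (adjusted p = 0.0143) and EE (adjusted p = 0.0147), a smaller change than the median of the panel. With TMM scaling the sign turned, to 0.24 for E2 (adjusted p = 0.0657) and 0.36 for EE (adjusted p = 0.0102). The call for E2 was lost without E2 replicate 2 (adjusted p = 0.0608), and that for EE was lost without EE replicate 11 (0.122) or EE replicate 14 (0.103). On the scale of the reference genes other than the 2 most variable, both calls were lost (0.0811 for E2 and 0.0922 for EE).

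Ifit2, which restrains viral translation, counted 208 and 168 in placebo, 199 and 163 in E2 and 121 and 152 in EE. The E2 samples overlapped with placebo, and both EE samples lay below all others. The log2 fold change was -0.11 ± 0.20 for E2 (adjusted p = 0.604), and Ifit2 fell by 0.53 ± 0.20 with EE (adjusted p = 0.0125). With TMM scaling the values were 0.51 for E2 (adjusted p = 0.0308) and 0.22 for EE (adjusted p = 0.301). The call for EE was lost without EE replicate 11 (adjusted p = 0.231) and without placebo replicate 22 (adjusted p = 0.114).

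**Figure D3:**
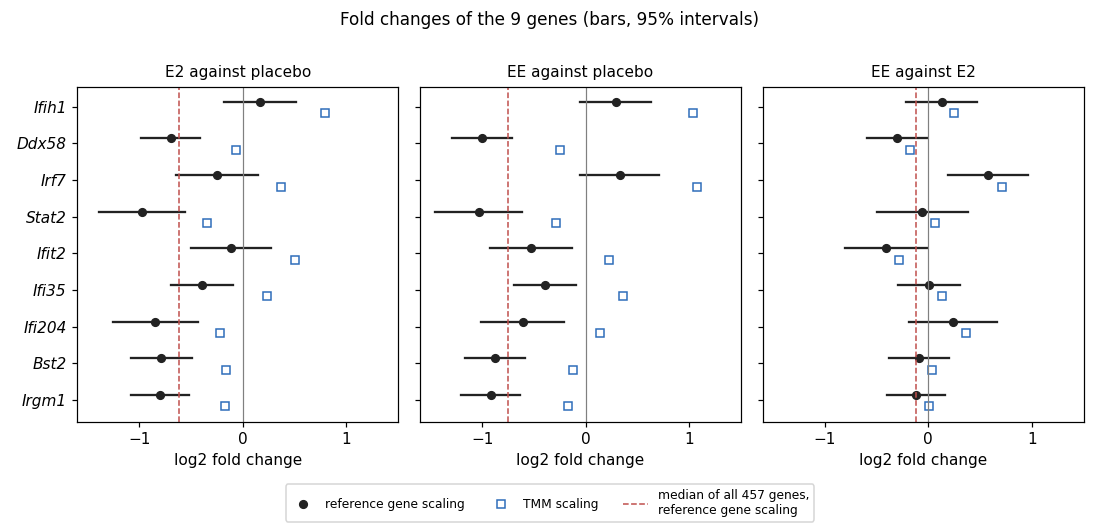
Log2 fold changes of the 9 genes in each comparison, as black points with 95% intervals when scaled on reference genes and as open squares with TMM scaling. The dashed line marks the median of the 457 genes tested on the reference gene scale, and so applies to the black points only. The black points of Ifih1, Irf7 and Ifi35 lie to the right of it in all 3 comparisons.

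The rank of a fold change among all 457 genes does not change when every fold change shifts by the same amount. In E2 against placebo the members lay between percentile 21.7 (Stat2) and 82.3 (Ifih1). In EE against placebo they lay between percentile 30.2 (Stat2) and 84.5 (Irf7), with Ifih1 at 83.4. The genes above percentile 60 in both comparisons were Ifih1, Irf7, Ifit2 and Ifi35, and Stat2, Irgm1, Bst2 and Ddx58 lay below percentile 50 in both.

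**Figure D4:**
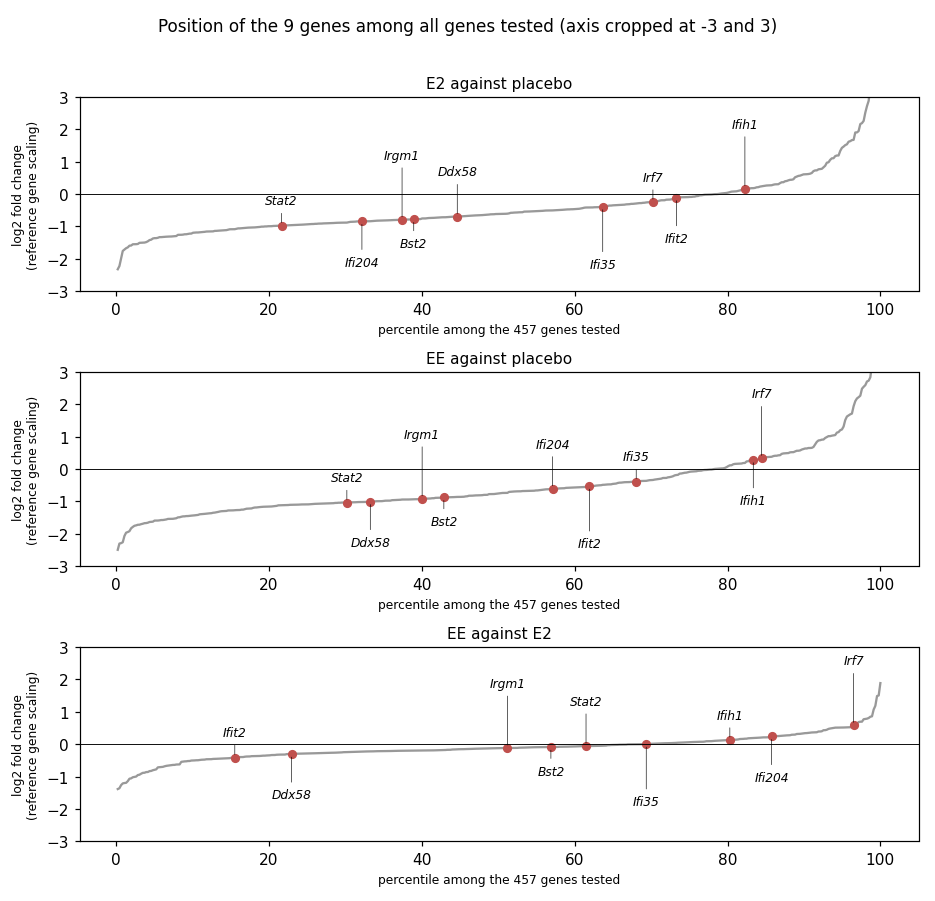
Log2 fold changes of the 457 genes tested in rising order (grey line) against their percentile, with the 9 genes as red points, for each comparison on the reference gene scale. The members are spread along the line in both comparisons with placebo, and Irf7 stands at percentile 96.5 in EE against E2.

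EE differs from E2 by an ethynyl group on carbon 17. With doses not given, the groups are set side by side as they were treated, and the comparison covers this pair of compounds, with p-values adjusted over the 457 genes. Irf7 was higher in EE than in E2, with a log2 fold change of 0.58 ± 0.20 (95% interval 0.19 to 0.97, adjusted p = 0.0257) and 0.71 with TMM scaling (adjusted p = 0.0215). It was the single member that passed the threshold, where 5.03% of all genes were higher and 10.9% lower in EE. With TMM scaling 7.44% were higher and 5.03% lower, and the single member called was again Irf7. The direction held in all 21 alternatives, but 14 of them passed the threshold. The call was lost without E2 replicate 2 (log2 fold change 0.39, adjusted p = 0.245), without EE replicate 11 (0.62, adjusted p = 0.236) and without EE replicate 14 (0.53, adjusted p = 0.27), with DESeq2 (adjusted p = 0.0908), with limma at a pseudocount of 1 (0.0872) or with background subtracted (0.127), and with scaling on positive controls (0.195). The summed count of 12 monocyte and macrophage markers was also higher in EE on the reference scale, at 12281 to 13825, than in E2, at 8735 to 8844, and with TMM scaling 5 of the 11 tested were higher in EE and 1 lower. The part of these cells in the level of Irf7 was not tested.

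The samples of EE lay above those of E2 for 3 members and below them for 2 (17.5% and 40.9% of all genes). For the other 8 members no difference between the estrogens passed the threshold. Ddx58 (-0.30, interval -0.59 to -0.02, adjusted p = 0.157) and Ifit2 (-0.41, interval -0.81 to -0.02, adjusted p = 0.164) came closest, both lower in EE, and both passed it when scaled on positive controls (adjusted p = 0.0258 and 0.018). The log2 differences of the rest were smaller, with intervals of -0.38 to 0.21 for Bst2, -0.40 to 0.16 for Irgm1, -0.29 to 0.31 for Ifi35, -0.50 to 0.39 for Stat2, -0.21 to 0.47 for Ifih1 and -0.18 to 0.66 for Ifi204. An interval that includes 0 does not show that the estrogens act alike.

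The rest of the interferon pathway on the panel was described through 35 further genes, of which 31 were tested. On the reference scale 26 of the 31 were lower and 0 higher under E2, where 62.6% of all genes tested were lower and 11.8% higher, and the median log2 fold change was -0.67. Under EE the counts were the same, 26 and 0, where 65.9% of all genes were lower and 14.4% higher, and the median was -0.82. Both medians lay near those of the panel, -0.62 and -0.75. With TMM scaling 4 were higher and 8 lower under E2, where 29.3% and 22.8% of all genes were, and 4 were higher and 6 lower under EE, where 29.8% and 26.9% were.

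Of the ligands, Ifna1, Ifna2, Ifnb1 and Ifnl2 counted at most 11 in any sample, near background, and were not tested, so a difference in these transcripts was not detectable at this depth. Ifng, the type II interferon, counted 35 and 32 in placebo, 28 and 21 in E2 and 23 and 19 in EE. Its log2 fold change was -0.51 for E2 (adjusted p = 0.182) and -0.74 for EE (adjusted p = 0.0531), neither past the threshold. The sign turned with TMM scaling, to 0.11 (adjusted p = 0.746) and 0.014 (adjusted p = 0.965).

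Of 8 interferon receptor and Jak kinase genes tested, 7 were lower and 0 higher under each estrogen on the reference scale. Of all genes, 62.6% (E2) and 65.9% (EE) were lower. With TMM scaling 2 of the 8 were higher and 2 lower under each estrogen. Of all genes, 29.3% were then higher and 22.8% lower under E2, and 29.8% and 26.9% under EE. The receptor chains differed from each other. Ifnar1 fell by 0.97 with E2 (adjusted p = 1.36e-10) and fell by 1.09 with EE (adjusted p = 5.04e-13), and was also lower with TMM scaling, at -0.34 (adjusted p = 0.0135) and -0.33 (adjusted p = 0.0132). Ifnar2, its partner in the type I receptor, counted 949 and 921 in placebo, 943 and 880 in E2 and 914 and 975 in EE, with log2 fold changes of -0.10 and -0.05 (adjusted p = 0.548 and 0.757). With TMM scaling Ifnar2 was higher, at 0.53 (adjusted p = 0.00109) and 0.70 (adjusted p = 1.43e-04). The kinase gene Jak1, which serves both receptors, had log2 fold changes of -0.98 and -1.10 (adjusted p = 8.10e-12 and 1.23e-14), and with TMM scaling -0.35 and -0.34 (adjusted p = 0.00534 and 0.00499).

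Among 8 transducers and interferon regulatory factors, which include the members Stat2 and Irf7, 7 were lower under each estrogen on the reference scale. The exception was Irf7, and 62.6% (E2) and 65.9% (EE) of all genes tested were lower. The log2 fold changes of Irf1, a factor that both type I and type II interferon induce, were -0.94 with E2 (adjusted p = 2.28e-10) and -1.14 with EE (adjusted p = 1.74e-14). With TMM scaling 1 was lower under each estrogen, which was Irf1 at -0.32 and -0.39 (adjusted p = 0.0181 and 0.00576), and Irf7 was higher under EE. Of 11 sensors and adaptors, which include the members Ifih1, Ddx58 and Ifi204, 8 were lower under each estrogen against the same shares of the panel. With TMM scaling 3 were higher and 2 lower under E2, and 2 were higher and 2 lower under EE. Lower on the reference scale were the kinase gene Ikbke, which acts below the RNA sensors (-1.12 and -1.57, adjusted p = 2.93e-12 and 6.75e-22), and Tlr9, an endosomal DNA receptor (-0.96 and -1.06, adjusted p = 2.11e-08 and 6.28e-10). With TMM scaling Ikbke remained lower, at -0.50 and -0.82 (adjusted p = 0.00534 and 2.71e-04). Tlr9 had TMM-scaled values of -0.34 for E2 (adjusted p = 0.0387) and -0.30 for EE (adjusted p = 0.0528), so that the call for EE was lost. Tlr8, an endosomal RNA receptor, gave -0.06 and 0.19 (adjusted p = 0.762 and 0.345), and 0.57 and 0.94 with TMM scaling (adjusted p = 0.00777 and 3.73e-04).

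Of 40 effectors and chemokines listed, 12 were found in the table, so the panel covers this arm in part only. Among those not found were the interferon-stimulated genes Isg15, Mx1, Mx2, Oas1a, Oas2, Oas3, Ifit1, Ifit3, Rsad2 and Usp18. The 12 include the members Ifit2, Ifi35, Bst2 and Irgm1. Of these 12, 10 were lower under E2 and 11 under EE on the reference scale, beside the same 62.6% and 65.9% of all genes. Under E2 the lowest p was that of Ccl5, a chemokine of T and NK cells (-1.32, adjusted p = 1.23e-17). Under EE it was that of Ifitm1, a membrane protein that blocks viral entry (-1.08, adjusted p = 3.82e-14). Both calls held with TMM scaling, at -0.70 for Ccl5 under E2 (adjusted p = 0.00256) and -0.33 for Ifitm1 under EE (adjusted p = 0.00555). With the other estrogen each gene was also lower on the reference scale, but the call was lost with TMM scaling. Ccl5 under EE went from -1.03 to -0.28 (TMM adjusted p = 0.113), and Ifitm1 under E2 from -0.62 to 0.009 (TMM adjusted p = 0.932). Over the 12 genes, TMM scaling gave 1 higher and 3 lower under E2 and 2 higher and 2 lower under EE. Cxcl10, an interferon-induced chemokine, counted 32 and 42 in placebo, 38 and 38 in E2 and 53 and 56 in EE, with log2 fold changes of -0.02 and 0.49 (adjusted p = 0.954 and 0.116). With TMM scaling Cxcl10 was higher under EE, at 1.24 (adjusted p = 0.00128), and its value for E2 was 0.60 (adjusted p = 0.0583). In EE against E2, Ifitm1 (-0.46, adjusted p = 0.00701) and Ikbke (-0.45, adjusted p = 0.0305) were lower among the 31 and 0 were higher. With TMM scaling the call of Ifitm1 held (adjusted p = 0.0217) and that of Ikbke was lost (0.109).

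For 8 members the gene outside the list with the closest course over the 6 samples was found, by the root mean square difference of log2 values centred on each gene's mean. Irgm1 lay closest to Batf (0.031), Ddx58 to Irf5 (0.032) and Stat2 to Runx1 (0.040). Ifi35 lay closest to Eef1g (0.036) and Ifih1 to Tubb5 (0.072), both reference genes of the panel. Ifit2 lay closest to Lair1 (0.083), Ifi204 to Psmb10 (0.13) and Irf7 to Fcgrt (0.13). Within the list, Bst2 and Irgm1 were closest to each other (0.054), and Irf7 and Ifih1 had the farthest nearest neighbours, which were each other (0.27).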

How the data were processed

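Per the labels, total RNA of splenocytes was counted as digital barcodes on an nCounter mouse immunology panel. The deposited values are whole-number counts per probe, and the sources used here name no background or scaling steps. The table held 575 rows: 561 genes, of which 549 were named through RefSeq identifiers without versions (GRCm38.p6 gene table), and 14 spike-in controls, of which the 6 whose mean reached 20 counts were taken as positive. Controls, 2.82% to 4.71% of all counts, were left out of totals and tests. Value columns without a sample numbered 0.

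The 457 genes whose mean reached 20 counts were tested with edgeR 4.0.16 (R 4.3.3), quasi-likelihood, with the geometric mean of 12 named reference genes as library size, group means over all 6 samples (3 residual degrees of freedom) and Benjamini-Hochberg adjustment over all 457 genes at 0.05. The values may have been scaled on reference genes before deposit, which was not settled here, and the reference scale was taken because TMM would undo any such scaling. In that fit all genes shared a single trend of the spread with mean count, with no allowance for genes that vary more, so its p-values may be too small. SE and 95% intervals follow from each fold change and its F. Alternatives comprised 5 other scalings, the reference genes without the 2 most variable, DESeq2 1.42.0 and limma 3.58.1 on log2 values. The limma fits used the deposited values without reference scaling. Further alternatives were filters, the threshold, the groups in the fit, a robust prior and each sample left out. The 9 genes, the gene lists and the scale were chosen with earlier results of these data known. Some pathway genes were named after their values were seen (Ifnar2, Tlr8, Cxcl10 and the interferon ligands). Also named with values were all members, the nearest gene of each, and up to 4 called genes per pathway list with the lowest p. A further gene that this rule names is not reported here.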

Additional observations from a re-analysis of the deposited data

How the results depend on the processing

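The scale decided the comparisons with placebo. Among members, E2 gave 2 higher and 0 lower with TMM and with median-of-ratios scaling (medians -0.071 and -0.072), and a median of -0.55 on column totals. EE gave 3 higher and 1 lower with both (medians 0.14 and 0.14), 2 and 4 on column totals (median -0.20), a median of -0.87 on positive controls, 2 higher on the deposited values as they stand and without the 2 most variable reference genes, and 1 higher with each of the 3 limma fits. Over all genes, E2 gave 134 higher with both TMM and median of ratios, and 104 and 105 lower. EE gave 136 and 139 higher and 123 and 123 lower, with 102 higher on totals and 39 on positive controls, against 66 and 301 on reference genes. The other scalings differ from the reference scale by a near-constant shift of all fold changes. The estimated spread changed as well: its common coefficient of variation was 0.103 on the reference scale and 0.089 with TMM. Unlike the main fit, the TMM fit allowed for genes that vary more than the trend. The part of these changes in the calls was not tested.

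In EE against E2 the members' median of -0.06 turned to 0.067 with TMM, to 0.069 with median of ratios and to 0.21 on column totals, and was -0.29 on positive controls, where 0 members were higher and 2 lower. With DESeq2, limma at a pseudocount of 1 and limma with background subtracted, 0 members were higher. Over all genes, 23 higher and 50 lower became 34 and 23 with TMM, 37 and 25 with median of ratios, 81 and 18 when scaled on column sums, and 10 and 117 when scaled on positive controls. DESeq2 called 32 lower, limma 10 and 21 at a pseudocount of 1, 30 lower at 10, and 5 and 5 with background subtracted. The limma fits differ from the main fit in scale as well as in tool. The cause of the differences between tools was not tested.

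Members whose sign turned in E2 against placebo were Irf7 (0.37 with TMM, 0.37 with median of ratios), Ifi35 (0.24 and 0.23) and Ifit2 (0.51 and 0.51, 0.033 on column totals, 4.02e-04 without the 2 most variable reference genes). In EE against placebo they were Ifit2 (0.22 and 0.22), Ifi204 (0.14 and 0.14) and Ifi35 (0.36 and 0.37, 0.030 on column totals). In EE against E2 they were Stat2 (0.067, 0.069 and, on column totals, 0.21), Bst2 (0.038, 0.040 and 0.18) and Irgm1 (0.0065, 0.0088 and 0.15), and on positive controls Ifih1 (-0.10) and Ifi35 (-0.23).

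With each sample left out in turn, members lower ranged from 5 to 6 for E2 and from 4 to 7 for EE against placebo, members higher from 0 to 0 and from 0 to 1, and medians from -0.78 to -0.63 and from -0.80 to -0.40. In EE against E2 members higher ranged from 0 to 1, the median from -0.11 to 0.029, and all genes from 8 to 33 higher and from 14 to 68 lower. Without EE replicate 11, 4 members were lower under EE. Ifit2 in E2 ranged from -0.27 to 0.029, Bst2 in EE against E2 from -0.20 to 0.030 and Ifi35 there from -0.016 to 0.029. Leaving out a sample leaves an arm with 1, which is assumed to vary like the others. Of 567 values of single members under the alternatives, 478 kept sign and call, 40 lost the call, 18 gained it and 31 turned sign. No paired analysis was possible because the groups share no replicate numbers. Low counts limit Irf7, Stat2, Ifit2 and Ifi204 most, whose SE was about 0.2 on the log2 scale.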
